A study of Drosophila melanogaster with 2 samples.

Results

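The 8 genes described here make up the dosage compensation machinery of Drosophila and its switch. They are the non-coding RNAs lncRNA:roX1 and lncRNA:roX2 (roX1 and roX2 below), the protein genes msl-1, msl-2, msl-3, mle and mof, and the regulator Sxl. They were taken by symbol from the 17753 genes of the count tables. The data are 2 single-cell RNA sequencing experiments on medulla neuroblasts (NBs), the stem cells of the largest neuropil of the fly optic lobe. Each experiment pooled the brains of 120 untreated wandering larvae of the third instar, raised at 25 °C, that carried the reporter E(spl)mgammaGFP together with SoxNGal4 and UAS-RedStinger over the balancer TM6B. Dissociated cells with both the GFP of the NB reporter and the RFP driven by SoxNGal4 in medulla cells were sorted and made into 1 library with the 10x Genomics 3′ chemistry. The experiments share this genotype, stage and sort, so the data are 2 replicates of 1 condition. The labels do not give the sex of the larvae, and a library cannot tell the larvae of its pool apart.

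In Drosophila, males carry a single X chromosome and raise its transcription to match the X chromosomes of females. This is done by the male-specific lethal (MSL) complex, which coats the male X. Either roX RNA can serve in it, MSL2 is the subunit that is limiting for its assembly, and the complex is spread along active X-linked genes where MOF acetylates histone H4. In females the splicing regulator Sex-lethal (Sxl) blocks the translation of msl-2 mRNA, so the complex does not form and the roX RNAs are not stabilized. Sxl RNA is transcribed in both sexes, and its splicing, which the counts do not resolve, decides whether protein is made.

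The genes lie on 4 chromosome arms. Positions are those of the BDGP6.54 annotation of Ensembl release 115, on the same assembly as the BDGP6 reference that the files name but in a later annotation. On the X chromosome, roX1 (FBgn0019661) spans 3857230 to 3862697 on the minus strand and roX2 (FBgn0019660) spans 11579065 to 11580432 on the plus strand, both as non-coding RNA genes. Also on the X are mof (FBgn0014340) at 5873840 to 5876853 and Sxl (FBgn0264270) at 7074550 to 7098053, both on the minus strand. On 2L, msl-2 (FBgn0005616) spans 3462218 to 3466112 and msl-1 (FBgn0005617) spans 18683720 to 18688800. The remaining members are msl-3 (FBgn0002775) on 3L at 7123213 to 7125533 and mle (FBgn0002774) on 2R at 5974857 to 5980778. The roX1 gene overlaps ec on the opposite strand by 392 bases, and msl-3 overlaps form3 on the opposite strand by 85 bases. The counts of roX1 and msl-3 could therefore hold reads of those genes if strand was not used, which is not stated in the sources used here. The genes for mir-4956 and mir-4971 lie inside Sxl and msl-2 on the same strand.

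In all 42618478 unique molecular identifiers (UMIs, each counting 1 captured RNA molecule) were counted over the 6548 cells of experiment 1 and 116712060 over the 5343 cells of experiment 2. A cell was called an NB if it had at least 1 UMI of dpn, the gene of the NB factor Deadpan, and less than 10% of its UMIs on mitochondrial genes, which left 776 and 2298 NBs with medians of 9845 and 37671 UMIs. Cells under the same mitochondrial limit without a dpn UMI numbered 495 and 1844, with medians of 2525 and 978 UMIs, and are called dpn-negative cells. The libraries share 9 of 11891 barcodes. To check the label, other markers were read. NB markers other than dpn were present in both classes but higher in the NBs: mira, which segregates fate determinants at NB division, was at 732 and 659 CPM (UMIs of the gene per 1000000 UMIs of the class) in the NBs of experiments 1 and 2 and at 205 and 146 CPM in dpn-negative cells. The 6 neuron markers summed to 5752 and 4264 CPM in dpn-negative cells and to 1680.5 and 1106 CPM in NBs. The 5 glia markers summed to 432 and 504 CPM in NBs and to 247 CPM or less in dpn-negative cells of either experiment. Of them nrv2 and Eaat1 were higher in NBs by 1.28 and 1.70 on the log2 scale, while repo, which defines glia, was at 0.47 and 0.22 CPM in NBs and 5.3 and 4.1 CPM in dpn-negative cells, and Gs2 and wrapper were lower in NBs as well. Their part in the differences between the classes was not tested, and the 4 haemocyte markers summed to 0.4 CPM or less. The dpn-negative cells thus held more neuronal RNA than the NBs together with some NB RNA, and they are a class by rule rather than a cell type.

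The level of the machinery was first set side by side in the NBs and the dpn-negative cells of the sort. roX1, the longer of the roX RNAs, was at 3545 CPM in the NBs of experiment 1 and 3066 CPM in those of experiment 2, against 1879 and 1687 CPM in dpn-negative cells. roX2 had the opposite order, with 108 and 80.3 CPM in NBs against 346 and 253 CPM in dpn-negative cells. The classes did not overlap for either RNA. A count model over 4 sums (each class of each library, with the library as a block) put roX1 higher in NBs by 0.95 on the log2 scale (SE 0.13, adjusted p = 0.0224, edgeR) and roX2 lower by a log2 fold change of -1.61 (SE 0.077, adjusted p = 0.0144, edgeR).

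Of the 5 protein genes of the complex, 2 passed the test between the classes. msl-1, the gene of the scaffold protein, was at 109 and 72.7 CPM in NBs against 72.1 and 45.6 CPM in dpn-negative cells, so the classes did not overlap, although the lower NB value and the higher dpn-negative value lay close together. Its log2 fold change was 0.70 (SE 0.085, adjusted p = 0.0204, edgeR). mof, the acetyltransferase gene, was at 30.5 and 32.7 CPM in NBs against 20.5 and 19.9 CPM, with a log2 fold change of 0.71 (SE 0.12, adjusted p = 0.0304, edgeR). msl-2 was at 39.8 and 40.6 CPM in NBs against 24.7 and 31.4 CPM, and msl-3, whose chromodomain protein takes part in spreading, was at 12.5 and 11.6 CPM against 5.7 and 7.7 CPM. These were higher in the NBs of both experiments but did not pass the test, with adjusted p = 0.0618 and adjusted p = 0.0748 in edgeR. mle, the gene of the RNA helicase that remodels the roX RNAs, was at 51.8 and 41.1 CPM in NBs against 59.6 and 46.4 CPM (log2 fold change -0.13, SE 0.097), and Sxl was at 315 and 254 CPM against 442 and 302 CPM (log2 fold change -0.31, SE 0.093, adjusted p = 0.0785 in edgeR). Of the 8 members, 3 passed the test as higher in NBs and 1 as lower, where 18.6% and 24.4% of all 8285 genes tested did so. The count of 4 called members is therefore read as no more than the single genes it holds. The model has 1 residual degree of freedom. With the library as a block, p-values here and below measure only how far differences between classes varied between the 2 libraries. The estimate of that spread borrows from other genes. With a mitochondrial limit of 20%, with no such limit on dpn-negative cells, or with all cells thinned to 2000 UMIs, no gene passed edgeR's adjusted threshold (2620, 3044 and 2131 genes had an unadjusted p under 0.05), while the log2 fold changes stayed between 0.74 and 1.09 for roX1 and between -1.71 and -1.24 for roX2 over 8 settings. The fold of mof fell to 0.15 after thinning.

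**Figure D1:**
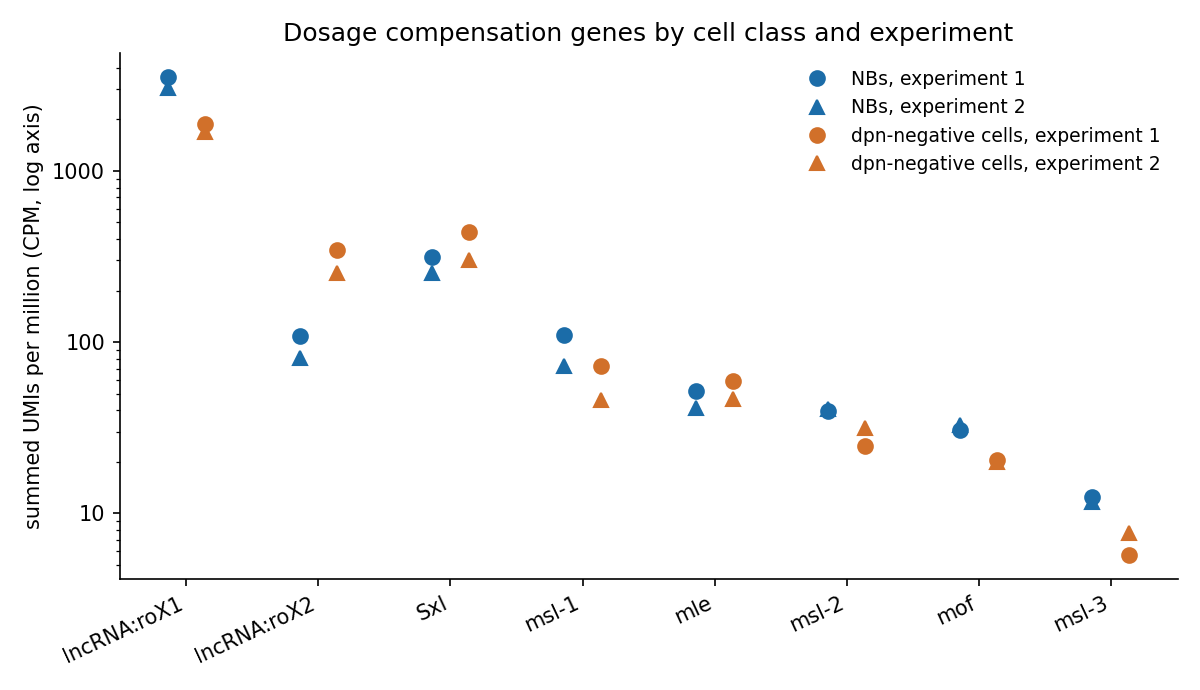
CPM (log axis) of the 8 genes in NBs (blue) and dpn-negative cells (orange), with a circle for experiment 1 and a triangle for experiment 2. roX1 was higher in NBs (3545 and 3066 CPM against 1879 and 1687) and roX2 lower (108 and 80.3 CPM against 346 and 253), while mle (51.8 and 41.1 CPM against 59.6 and 46.4) differed least between the classes.

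Because the classes differ in depth, shares of cells with a UMI were taken after every cell was thinned to 2000 UMIs, which left 679 and 2180 NBs and 311 and 631 dpn-negative cells. At this depth roX1 was seen in 96.0% of NBs in experiment 1 (exact 95% interval 94.3 to 97.4) and in 95.3% in experiment 2 (94.3 to 96.1), against 76.5% (71.4 to 81.1) and 54.4% (50.4 to 58.3) of dpn-negative cells. roX2 was seen in 16.3% (13.6 to 19.3) and 14.1% (12.6 to 15.6) of NBs and in 22.2% (17.7 to 27.2) and 27.6% (24.1 to 31.2) of dpn-negative cells. Intervals cover counting error only. The order of both RNAs was thus the one given by CPM, and in experiment 1 the intervals of the roX2 shares overlap. Without thinning, roX2 was seen in 35.1% and 42.0% of NBs and in 19.6% and 15.9% of dpn-negative cells, an order that follows the depth. Sxl was seen in 44.3% and 38.8% of NBs at the fixed depth, msl-1 in 20.6% and 16.1%, mle in 10.6% and 7.8%, msl-2 in 7.2% and 7.9%, mof in 4.9% and 6.3%, and msl-3 in 2.1% and 2.3%. A cell of this depth with no UMI of a protein gene is therefore no sign that the gene is silent in it.

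Deeper cells allow the roX RNAs to be read cell by cell. In cells with at least 10000 UMIs, thinned to 10000, most NBs lay in 1 broad range of roX1. Its median was 31 UMIs in experiment 2 and 36 UMIs in experiment 1 among the NBs with at least 3 roX1 UMIs. Only 8 of 385 NBs in experiment 1 (2.1%, exact 95% interval 0.90 to 4.1) and 58 of 2078 in experiment 2 (2.8%, 2.1 to 3.6) had fewer than 3, and 4 and 41 of these had none. Of the dpn-negative cells of this depth, 22 of 59 (37.3%, 25.0 to 50.9) and 101 of 295 (34.2%, 28.8 to 40.0) had fewer than 3, and the rest had medians of 30 and 27 UMIs. No roX1 UMI at all was found in 9 of those 22 cells and in 86 of those 101 cells.

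roX2 was distributed otherwise. Of the deep NBs, 234 of 385 (60.8%) and 1363 of 2078 (65.6%) had no roX2 UMI in 10000, 80 and 409 had 1 or 2, and 71 (18.4%) and 306 (14.7%) had 3 or more, up to 19. Of the deep dpn-negative cells, 33 and 169 had none, 7 and 35 had 1 or 2, and 19 (32.2%) and 91 (30.8%) had 3 or more, up to 37. roX2 was nearly confined to cells with roX1. Among cells with fewer than 3 roX1 UMIs a roX2 UMI was found in 0 of 8 and 2 of 58 NBs and in 0 of 22 and 1 of 101 dpn-negative cells. The reverse did not hold in NBs, since 226 of 385 and 1307 of 2078 deep NBs had at least 3 roX1 UMIs and none of roX2. The same combination was found in 11 of 59 (18.6%, exact 95% interval 9.7 to 30.9) and 69 of 295 (23.4%, 18.7 to 28.6) dpn-negative cells, against 58.7% (53.6 to 63.7) and 62.9% (60.8 to 65.0) of NBs.

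**Figure D2:**
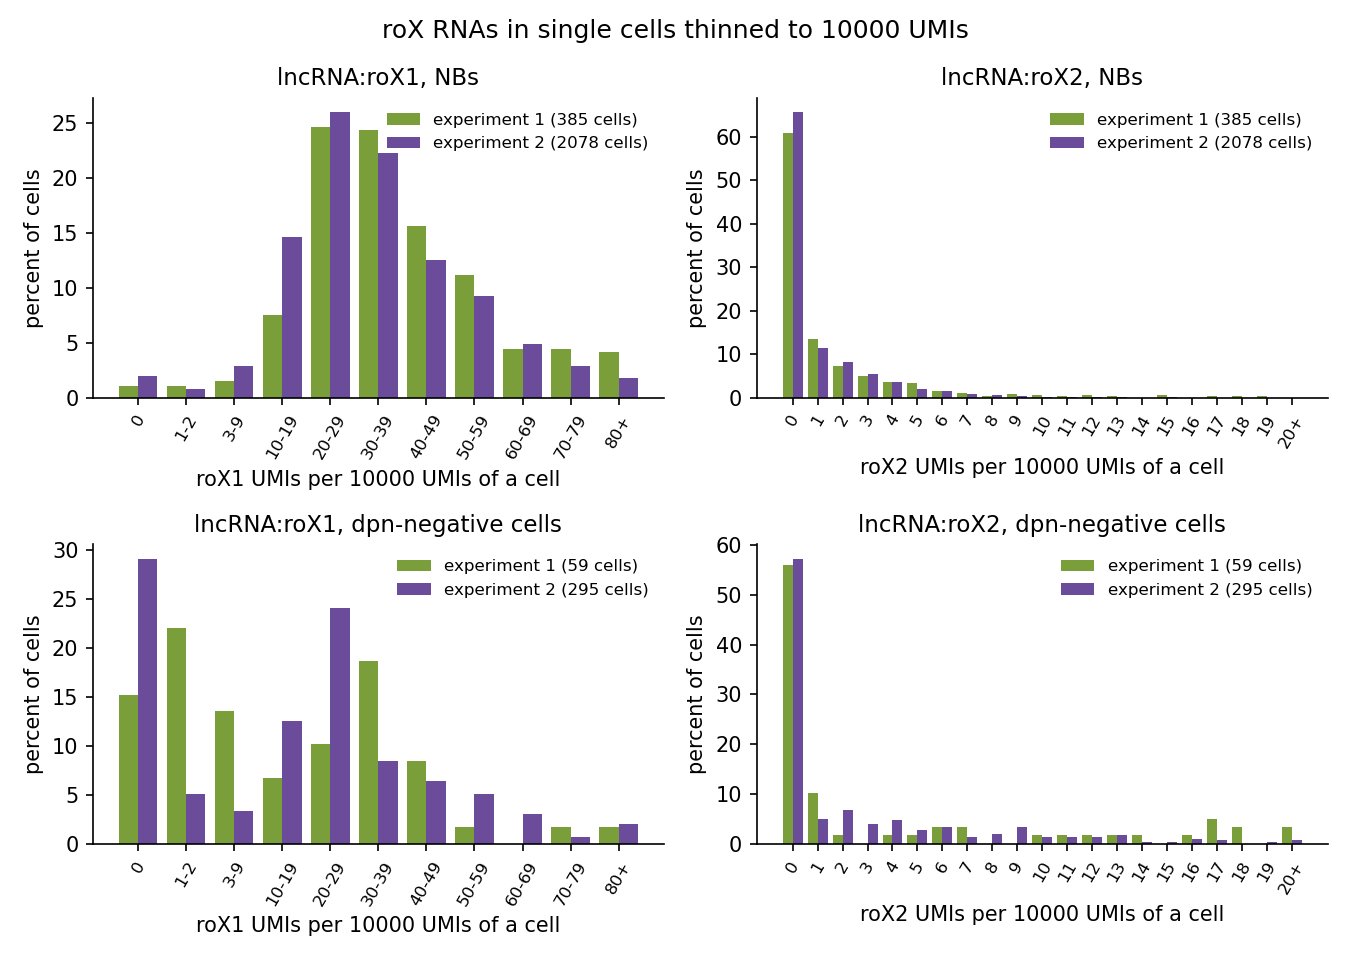
Percent of cells (vertical axis) by their UMIs of roX1 (left) or roX2 (right) per 10000 UMIs, for NBs (top) and dpn-negative cells (bottom) of experiment 1 (green) and experiment 2 (purple). Most NBs lie in 1 broad range of roX1, with 8 of 385 and 58 of 2078 cells under 3 UMIs, while 22 of 59 and 101 of 295 dpn-negative cells lie there, and most cells of both classes have no roX2 UMI.

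The few NBs with little roX1 stood apart in other genes. Over the 8 such cells of experiment 1, mira was at 270 CPM and the synaptic gene nSyb at 355 CPM, while the other deep NBs had 752 and 10.9 CPM. Over the 58 of experiment 2, mira was at 306 CPM and nSyb at 19.0 CPM, while the others had 674 and 1.4 CPM. The hth gene was at 2107 and 457 CPM in them, against 58.4 and 30.2 CPM. No stage could be given to 4 and 20 of them by the rule described below. The hth stage held 2 of 8 and 25 of 58 of them. Their markers did not all move in 1 direction, since the neuron gene elav was at 807 and 366 CPM against 1142 and 983 CPM in the other deep NBs, and the NB gene E(spl)mgamma-HLH was at 185 and 765 CPM against 692 and 707 CPM. The part of other cell types in their low roX1 was not tested.

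To see which genes go with roX2 inside a library, the deep NBs with 3 or more roX2 UMIs (roX2-positive) were compared with those with none (roX2-free), and the cells between were left out. roX2 itself chose the groups and is given as a description: it was at 408 and 315 CPM in roX2-positive NBs and at 16.2 and 15.5 CPM in roX2-free NBs over all UMIs of these cells. roX1 was at 5084 and 4623 CPM in roX2-positive NBs against 3011 and 2501 CPM in roX2-free NBs. The groups did not overlap, and roX1 was higher by 0.81 on the log2 scale (SE 0.039, adjusted p = 9.62e-07, edgeR over 4 sums). In single cells the median of roX1 was 53 and 51 UMIs per 10000 in roX2-positive NBs and 31 and 25 UMIs in roX2-free NBs.

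Among the protein genes, msl-2 changed most. It was at 67.9 and 83.1 CPM in roX2-positive NBs and at 26.3 and 24.2 CPM in roX2-free NBs, a log2 fold change of 1.63 (SE 0.11, adjusted p = 1.07e-05, edgeR). The 80 and 409 NBs with 1 or 2 roX2 UMIs, which the test did not use, had 54.3 and 70.9 CPM of msl-2. Sxl, whose protein represses msl-2, was lower in roX2-positive NBs, at 218 and 165 CPM against 371 and 298 CPM in roX2-free NBs. In the cells between, Sxl was at 204 and 159 CPM, slightly below the roX2-positive NBs. Its log2 fold change was -0.83 (SE 0.066, adjusted p = 4.75e-05, edgeR). mof was at 39.2 and 40.4 CPM against 24.2 and 28.5 CPM in roX2-free NBs (log2 fold change 0.56, SE 0.11, adjusted p = 0.0162, edgeR). msl-1 was at 127 and 88.6 CPM against 101 and 68.1 CPM, so that it was higher within each experiment but overlapped between them (log2 fold change 0.35, SE 0.068, adjusted p = 0.0168, edgeR). msl-3 was at 16.4 and 14.1 CPM against 10.8 and 10.7 CPM (log2 fold change 0.46, SE 0.18, adjusted p = 0.234 in edgeR). mle was at 52.4 and 41.5 CPM against 49.0 and 39.9 CPM (log2 fold change 0.07, SE 0.090).

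Of the 7 members tested, 4 were higher and 1 was lower in roX2-positive NBs, where 2.42% and 1.25% of the 7309 genes tested were called in these directions. All 5 calls rest on the library block, since no gene passed edgeR's adjusted threshold without it (138 genes had an unadjusted p under 0.05). With DESeq2 in place of edgeR, roX1, msl-2 and Sxl kept their calls and msl-1 and mof did not. The direction of the 5 members was the same with either experiment alone. The roX2-positive NBs were shallower, with medians of 21083 and 25819 UMIs against 31402 and 44113 UMIs in roX2-free NBs, and with every cell thinned to 10000 UMIs the 5 members were called again.

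**Figure D3:**
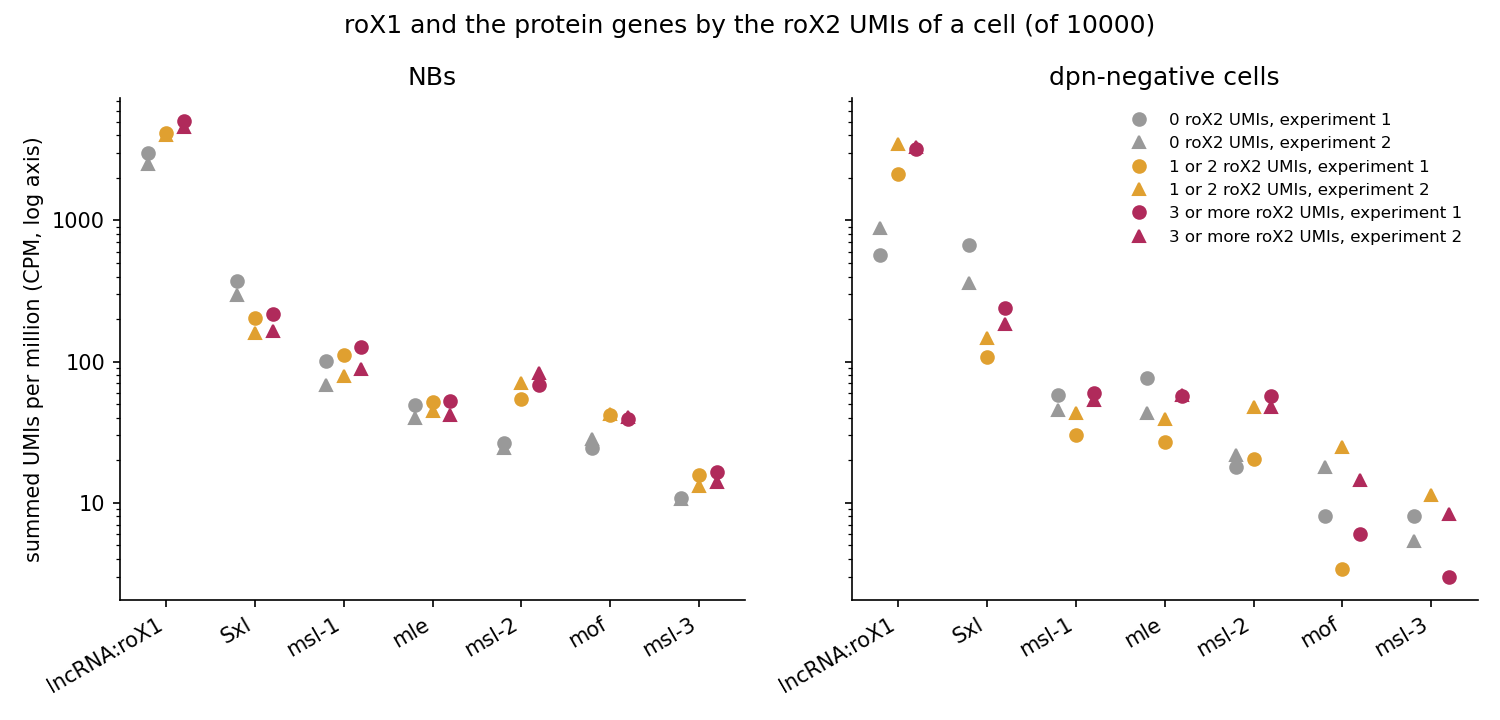
CPM (log axis) of roX1 and the 6 protein genes in cells of at least 10000 UMIs, divided by their roX2 UMIs among 10000 into none (grey), 1 or 2 (yellow) and 3 or more (red), for NBs (left) and dpn-negative cells (right), with a circle for experiment 1 and a triangle for experiment 2. In NBs, roX1 (3011 and 2501 to 5084 and 4623 CPM) and msl-2 (26.3 and 24.2 to 67.9 and 83.1 CPM) were higher and Sxl (371 and 298 to 218 and 165 CPM) was lower in cells with 3 or more roX2 UMIs, and msl-3 in the 7 dpn-negative cells of experiment 1 with 1 or 2 roX2 UMIs was at 0 and is not drawn.

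Other genes moved with roX2 as well. All 4 genes listed as markers of new neurons and ganglion mother cells were higher in roX2-positive NBs, among them dap, the gene of a cyclin-dependent kinase inhibitor (258 and 320 CPM against 136 and 138 CPM, log2 fold change 1.07, adjusted p = 2.12e-05, edgeR). The study also reports dap, nerfin-1 and the protein of pros in the oldest NBs, so in NBs these genes do not mark new neurons alone. These markers summed to 4091 and 1662 CPM in roX2-positive and to 1508 and 878 CPM in roX2-free NBs. Of the 6 neuron markers 5 were higher, and they summed to 2170 and 1325 CPM against 1624 and 1111 CPM. None of the 5 NB markers tested was called. Together with dpn, which chose the NBs, they summed to 2778 and 2926 CPM in roX2-positive and to 2952 and 2958 CPM in roX2-free NBs. With the cells that held a UMI of brp, nSyb, Syt1 or Sh left out, 51 and 286 roX2-positive and 164 and 1284 roX2-free NBs remained, and roX1 (0.87), msl-2 (1.73), msl-1 (0.45), mof (0.59) and Sxl (-0.84) kept their calls on the log2 scale. The differences were as large without those cells. The part of these markers of new neurons and of the oldest NBs in the result was not tested.

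The share of roX2-positive cells differed among stages. NBs with at least 2000 UMIs and a mira UMI were given the stage of the temporal transcription factor (TTF), or stage marker, that led in them: hth, ey, slp, D, B-H, tll or gcm, in the order in which an ageing NB is known to express them. The rule used none of the 8 genes. Among staged deep NBs, roX2-positive cells made up 4.8% (exact 95% interval 1.0 to 13.3) and 9.3% (6.5 to 12.6) in the ey stage and 25.0% (12.1 to 42.2) and 27.2% (22.0 to 32.9) in the gcm stage. In the hth stage the experiments were far apart, with 8 of 20 cells (40.0%) and 10 of 69 cells (14.5%). Within every one of the 14 combinations of stage and experiment, roX1 and msl-2 were higher and Sxl was lower in roX2-positive than in roX2-free NBs, by 0.52 to 1.86 for roX1, 0.51 to 2.12 for msl-2 and -1.28 to -0.52 for Sxl on a log2(CPM + 1) scale. mof was higher in 13 and lower in 1, the tll stage of experiment 1, where 4 cells were roX2-positive. The smallest group had 3 cells, so single stages are imprecise.

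The genes of the 10 smallest adjusted p in the comparison by roX2 were, beside roX1, msl-2 and dap, the ribosomal RNA precursors pre-rRNA:CR45847 (higher, log2 fold change 1.60) and pre-rRNA:CR45845 (lower, -3.20), the histone variant gene His3.3B (lower, -0.52), lncRNA:CR34335 (lower, -0.21) and bru3 (2.17), jim (1.83) and Lac (1.55), all higher. The RNA-binding protein gene bru3 was at 117 and 20.0 CPM in roX2-positive against 28.6 and 3.99 CPM in roX2-free NBs. The precursors are near-identical repeats whose reads counting can split in different ways, so their values are uncertain.

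X-linked genes as a whole were set beside autosomal genes, since they are the targets of the complex. Of 1302 X-linked genes other than the members, 34 were higher and 60 were lower in roX2-positive NBs (2.6% and 4.6%), with a median log2 fold change of -0.07. Of 5846 autosomal genes 131 were higher and 25 were lower (2.2% and 0.43%), with a median of 0.02. X-linked genes held 17.1% and 16.6% of all UMIs of roX2-positive NBs and 18.4% and 17.8% of all UMIs of roX2-free NBs. In dpn-negative cells the shares of all UMIs were 17.5% and 17.1% against 19.0% and 17.6%. The share of X-linked genes in all UMIs was thus lower with roX2 in both classes of both experiments, by 0.44 to 1.58 percentage points, and no test was made of it. Single X-linked genes of high level weigh in this share. In NBs lncRNA:CR34335 was at 29096 and 26407 CPM with roX2 against 33197 and 30430 CPM without. His3.3B was at 6903 and 8100 CPM against 10174 and 11208 CPM, while X-linked roX1 was higher with roX2. Their part in the share was not tested.

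In dpn-negative cells of at least 10000 UMIs, the same division gave 19 and 91 roX2-positive and 33 and 169 roX2-free cells. roX1 was at 3216 and 3304 CPM in the former and at 569 and 877 CPM in the latter, a wider gap than in NBs. roX2 made up 27.6% and 16.9% of the roX UMIs of roX2-positive dpn-negative cells and 7.4% and 6.4% of those of roX2-positive NBs. msl-2 was at 56.6 and 47.5 CPM against 17.8 and 21.9 CPM, and Sxl was at 241 and 184 CPM against 666 and 359 CPM, both in the direction found in NBs. mof was at 6.0 and 14.5 CPM against 8.1 and 17.9 CPM, opposite to NBs but from only 2 and 26 UMIs against 5 and 77 UMIs. No gene passed edgeR's adjusted threshold in these cells (273 genes had an unadjusted p under 0.05), so these values stand without a call. The difference between the classes was tested as an interaction over 8 sums, in which 0% of 7313 genes were called by edgeR and 229 had an unadjusted p under 0.05. For roX1 the step from roX2-free to roX2-positive cells was smaller in NBs by a log2 difference of -1.39 (SE 0.29, unadjusted p = 0.00274 and adjusted p = 1, edgeR), which does not pass.

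The study follows NBs as they age, and the members were compared along this axis. Early NBs (hth and ey stages, 154 and 460 cells), middle NBs (slp and D, 280 and 924 cells) and late NBs (B-H, tll and gcm, 165 and 664 cells) were summed per experiment, and late NBs were tested against early NBs over these 6 sums. Early NBs were deeper per cell, since their sums held 5512619 and 35546393 UMIs against 3272408 and 16833231 UMIs in late NBs. roX1 was at 3142, 3606 and 4386 CPM in early, middle and late NBs of experiment 1 and at 2438, 3337 and 3840 CPM in those of experiment 2 (log2 fold change 0.52, SE 0.061, adjusted p = 0.000291, edgeR). roX2 was at 99.05, 69.4 and 153 CPM and at 69.0, 70.2 and 115.3 CPM (0.64, SE 0.12, adjusted p = 0.00295, edgeR). roX1 rose in steps in both experiments, while roX2 was highest in late NBs without such steps.

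msl-1 was at 90.7, 113 and 141 CPM and at 58.7, 76.2 and 94.6 CPM, with a log2 fold change of 0.61 (SE 0.056, adjusted p = 8.45e-05, edgeR). msl-2 was at 38.5, 38.6 and 47.4 CPM and at 30.4, 45.1 and 50.7 CPM, with a log2 fold change of 0.53 (SE 0.13, adjusted p = 0.00928, edgeR). Sxl was at 259, 325 and 365 CPM and at 227, 248 and 326 CPM, with a log2 fold change of 0.46 (SE 0.064, adjusted p = 0.00066, edgeR). Thus the RNAs of msl-2 and Sxl were both higher in late NBs, unlike in the comparison by roX2. The counts do not show how much Sxl protein was made. msl-3 (0.42) and mle (0.35) were also called higher, and mof was not, at 32.7, 28.7 and 31.5 CPM and at 30.8, 32.9 and 37.0 CPM (0.11, SE 0.097). In all 7 of 8 members passed as higher, where 27.5% of 7519 genes did. With cells thinned to 2000 UMIs only roX1 and roX2 were called, of 7 members tested. Without the library block none of the members was called by edgeR (3 had an unadjusted p under 0.05). Without the hth stage msl-3 was not called (adjusted p = 0.0652 in edgeR), and without cells that held a neuron marker UMI the same 7 members were called. Over all settings with both libraries, the main one included, roX2 was called in 7 of 9 and msl-3 in 5 of 8. In late against early NBs 5 of 6 neuron markers were lower and 1, elav, was higher. Of the 4 genes listed as markers of new neurons and ganglion mother cells, 3 were higher in late NBs (log2 fold change 6.04 for dap, 5.45 for nerfin-1 and 0.80 for tap), as were 4 of 5 NB markers. The study describes dap and nerfin-1 as expressed in NBs of the final stage. The part of these markers in the result was not tested.

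By single stage, roX1 was lowest in the hth stage (1133 to 2596 CPM over the experiments), which lay below the ey stage (2711 to 3256 CPM) without overlap. It was highest in the gcm stage (4128 to 4825 CPM), and each pair of neighbours in the order from ey over slp, tll, D and B-H to gcm overlapped. roX2 was lowest in the ey stage (67.5 to 67.9 CPM) and highest in the tll (146 to 219 CPM) and gcm (167 to 208 CPM) stages, with the hth stage at 74.0 CPM in experiment 2 and at 250 CPM in experiment 1, where it held 41 cells. msl-2 was lowest in the hth stage (19.6 to 36.8 CPM) and highest in the tll stage (59.8 to 72.7 CPM), which overlapped with gcm (53.1 to 64.1 CPM) but not with the D stage (35.4 to 48.5 CPM). For msl-1, mle and Sxl all neighbours overlapped when stages were ordered by the mean level of the gene. In the order of age this did not hold for Sxl, since the ey stage (221 to 245 CPM) lay below the hth stage (252 to 326 CPM). Nor did it for mle, with the ey stage (34.6 to 43.8 CPM) below the slp stage (44.5 to 52.5 CPM). mof ranged from 19.2 to 48.3 CPM, and no stage lay apart from its neighbours by mean level. In the order of age the D stage (28.3 to 31.8 CPM) lay below the B-H stage (34.4 to 37.0 CPM). msl-3 ranged from 8.3 CPM in the hth stage to 34.1 CPM in the tll stage of experiment 1, which held 23 cells.

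**Figure D4:**
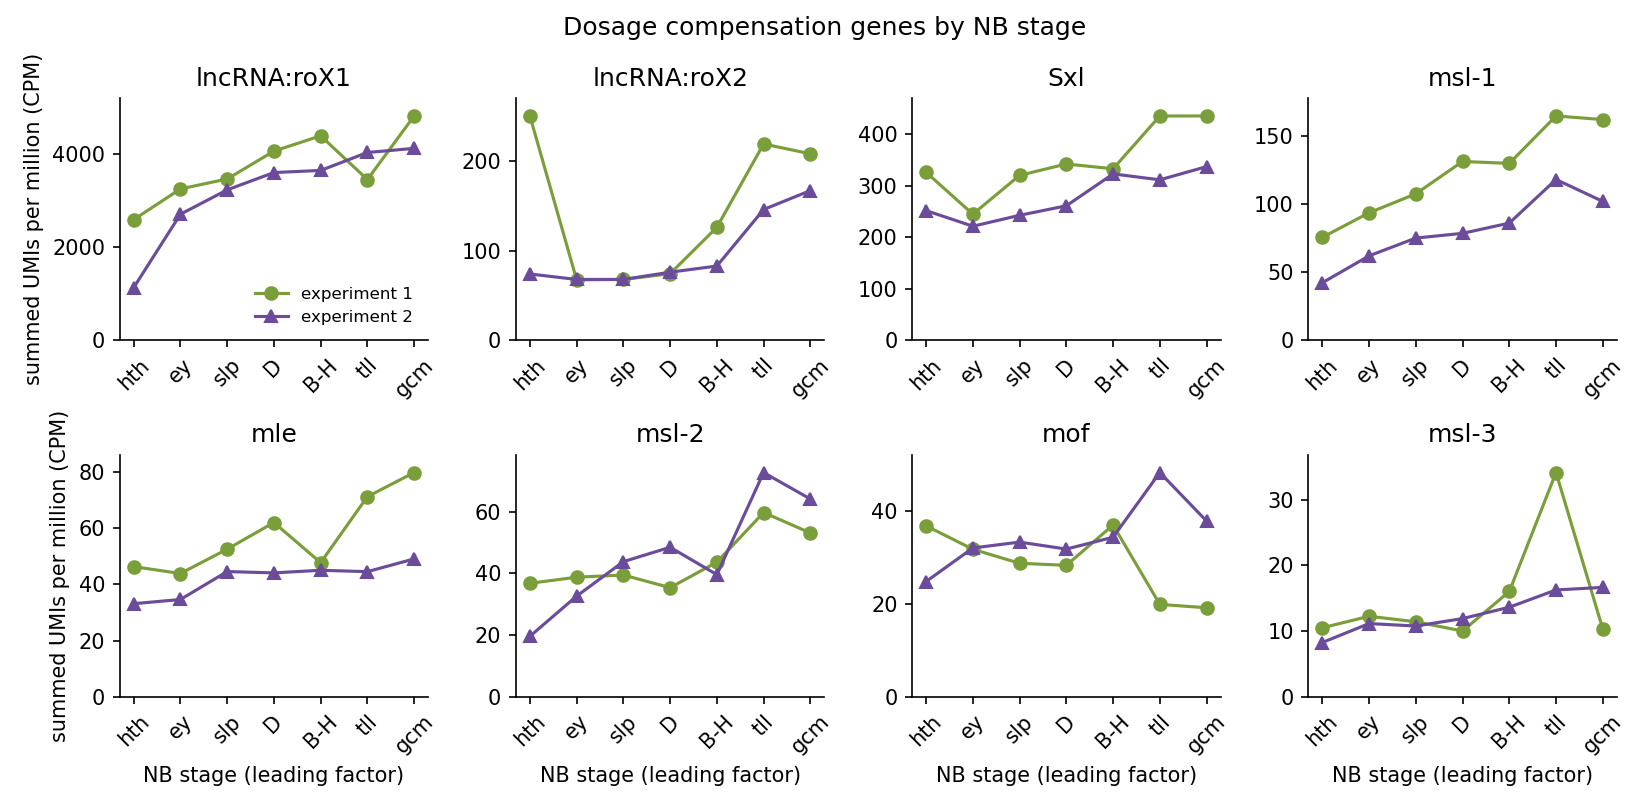
CPM (each axis from 0) of the 8 genes in NBs of each stage, ordered from young to old on the horizontal axis, with a green line for experiment 1 and a purple line for experiment 2. roX1 was lowest in the hth stage (1133 and 2596 CPM), roX2 was high in the tll and gcm stages (146 to 219 CPM) and, in experiment 1 only, in the hth stage (250 CPM), and mof went apart between experiments in the tll and gcm stages.

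The change with age was also taken within the roX2 classes. On a log2(CPM + 1) scale, late minus early was 0.75 and 0.77 for roX1 in roX2-positive deep NBs and 0.31 and 0.50 in roX2-free deep NBs. For Sxl it was 0.36 and 0.64 in the former and 0.41 and 0.58 in the latter. For msl-2 it was 0.53 and 0.90 in roX2-positive NBs and -0.04 and 0.17 in roX2-free NBs, and for msl-1 1.16 and 0.78 against 0.52 and 0.64. For mle it was 1.07 and 0.54 against 0.21 and 0.46, for msl-3 0.55 and 0.45 against 0.71 and 0.34, and for mof -0.41 and 0.18 against 0.18 and 0.27. None of these differences between the roX2 classes was tested.

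Partners of the members were followed in 3 lists. The shares of all genes tested that were called are 18.6% higher and 24.4% lower between the classes, 27.5% higher and 29.4% lower with age, and 2.42% higher and 1.25% lower by roX2. The calls of these lists between the classes are lost, like all others, under the 20% mitochondrial limit, with no limit on dpn-negative cells and after thinning to 2000 UMIs. Of 10 genes that recruit, regulate or work with the MSL complex, 6 were higher in NBs than in dpn-negative cells and none was lower, and the median log2 fold change was 0.51 against 0.08 over all genes tested. The largest were how, which encodes an RNA-binding protein that acts on msl-2 (84.9 and 76.9 CPM in NBs against 44.0 and 31.7 CPM), the topoisomerase gene Top2 (519 and 457 CPM against 254 and 212 CPM) and gfzf (43.3 and 32.7 CPM against 22.8 and 15.2 CPM). In late against early NBs 8 of the 10 were higher and none was lower (median 0.50 against -0.03 over all genes tested). The largest were Top2 (1.01), the histone kinase gene JIL-1 (1.00) and Clamp (0.82), whose zinc finger protein brings the complex to its entry sites on the X and which was at 87.1 and 110 CPM in early and 178 and 188 CPM in late NBs. gfzf and Clamp overlap genes on the opposite strand. None of the 10 was called by roX2 (median 0.08).

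The non-specific lethal (NSL) complex also contains MOF and works at promoters on all chromosomes in both sexes. Of its 8 listed genes 7 were matched. All 7 were higher in NBs than in dpn-negative cells, as were 18.6% of all genes tested, led by Chro (0.91), wds (0.80) and MBD-R2 (0.69). These calls are lost in the settings named above. All 7 were also higher in late NBs, as were 27.5% of all genes tested, led by Rcd5 (1.22), dgt1 (1.00) and Chro (0.95). By roX2 only Rcd5 was called (log2 fold change 0.35, SE 0.069, adjusted p = 0.018, edgeR), at 82.0 and 125 CPM in roX2-positive and 65.1 and 96.6 CPM in roX2-free NBs.

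Of the genes of the sex determination pathway, 16 were tested between the classes. In NBs 5 were higher and 2 lower (31.25% and 12.5%, against 18.6% and 24.4% of all genes tested). run, an X-linked element that counts X chromosomes in the embryo, was at 0.65 and 0.56 CPM in NBs against 3.8 and 10.2 CPM. fru was at 4.6 and 3.4 CPM against 22.4 and 10.3 CPM, and tra, the direct splicing target of Sxl in females, was at 543 and 980 CPM against 307 and 511 CPM. With age, 8 of 15 were higher and 1 was lower, against 27.5% and 29.4% of all genes tested. The lower gene was tra, with 850 and 1391 CPM in early and 82.5 and 138 CPM in late NBs (log2 fold change -3.41, SE 0.070, adjusted p = 5.08e-07, edgeR). The next largest were fl(2)d (0.73) and gro (0.70), both higher. tra overlaps l(3)73Ah by 74 bases on the opposite strand. By roX2, tra was lower (390 and 730 CPM in roX2-positive against 586 and 1002 CPM in roX2-free NBs, log2 fold change -0.53, SE 0.062, adjusted p = 0.000842, edgeR). So was snf, which encodes a splicing protein that acts on Sxl (183 and 176 CPM against 238 and 218 CPM, log2 fold change -0.35, SE 0.063, adjusted p = 0.0129, edgeR).

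The genes whose pattern over stages was most like that of each member were taken by Pearson's r of log2(CPM + 1) over 14 points, 7 stages of each experiment after the experiment means were removed, among 4085 genes. The stages share a library, so these coefficients are descriptions only. They were spidey (0.97), sti (0.95) and HP5 (0.95) for roX1, Dyrk3 (0.95), mamo (0.92) and pum (0.92) for roX2, CG14478 (0.99), U2af50 (0.99) and Spt5 (0.98) for msl-1, and Cdc27 (0.93), Med (0.93) and Syx1A (0.93) for msl-2. For msl-3 they were mRpS23 (0.95), l(2)SH0834 (0.90) and fh (0.90), for mle CG15602 (0.97), me31B (0.94) and cbc (0.93), for mof Snp (0.89), CG7705 (0.88) and eIF3f1 (0.84), and for Sxl sli (0.97), CG17514 (0.96) and MED26 (0.95).

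Over single deep NBs at 10000 UMIs, the genes most like roX1 were the chromatin protein genes HmgD (mean of the experiments' coefficients 0.48), His2Av (0.45) and HmgZ (0.42). Those most like roX2 were pre-rRNA:CR45847 (0.43), roX1 (0.39) and msl-2 (0.33), so that 2 of the 3 were members. Sxl had negative coefficients with roX1 (-0.27 and -0.17) and roX2 (-0.26 and -0.27), while msl-3 and mle lay between 0.00 and 0.06 with both RNAs. These cells share a library, and low counts press all coefficients toward 0.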

How the data were processed

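The authors made 10x Genomics Chromium 3′ libraries from polyadenylated RNA, and used Cell Ranger for alignment and counting, in version 3.0.1 for experiment 1 and in version 3.1.0 for the other, on a BDGP6 reference, per the file headers and the submitters' processing notes. The deposited values are UMI counts as counted, with no normalization and no pooling of the experiments. The 5 NBs with the most UMIs were removed after the study's methods, and no doublet caller was run. All rows of the tables name genes.

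CPM is the sum of a gene's UMIs over a class of cells, per 1000000 UMIs of that class. Levels of different genes are not per length, so they were not ranked. Cells are not replicates, so UMI counts were summed per library and class and tested with edgeR 4.0.16 in R 4.3.3 (TMM normalization, filterByExpr with a minimum count of 10, quasi-likelihood fit, Benjamini-Hochberg adjustment over all genes tested, called at an adjusted p under 0.05). The library was a block, since every class holds cells of both pools of larvae, and the deviations of the classes of a library from the class means correlated over genes at 0.287 in the comparison with dpn-negative cells, at 0.486 to 0.679 with age, at 0.585 by roX2 and at 0.171 to 0.531 in the interaction. The genes dpn and roX2 chose classes and were left out of the counts of called genes in the fits they chose. Thinning drew UMIs without replacement with a fixed seed. Shares have exact Clopper-Pearson 95% intervals. An NB had the stage of the factor with the highest log(1 + UMIs per 10000), divided by its 99th percentile in the NBs of the library, and 177 and 250 NBs had no stage. The fits were tested on simulated data with known changes. Python 3.11.15 with numpy 2.4.6, scipy 1.17.1 and pandas 2.3.3 was used.

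Named are all 8 members, the 3 called genes of each pathway list with the largest log2 fold change in a comparison, the 3 genes most like each member, and the 10 genes other than roX2 with the smallest adjusted p by roX2. Z4 and Xio were not found by symbol. The members and lists were chosen with earlier results of these data known. The alternatives were DESeq2 1.42.0 in place of edgeR, no block, no filter, each library alone, other mitochondrial limits, depths, roX2 thresholds and groups of stages. Those with cells chosen at 30000 UMIs, with dpn-negative cells by roX2, the interaction, cells with an elav UMI, cells without neuron marker UMIs and those without the hth stage were chosen after seeing the data.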

Additional observations from a re-analysis of the deposited data

Results flagged for a closer look

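In the classes made by roX2, the late minus early values of roX2 had opposite signs. Late minus early on a log2(CPM + 1) scale was -0.35 and -1.09 in roX2-free deep NBs of experiments 1 and 2 and 0.22 and 0.69 in roX2-positive deep NBs. The difference was not tested, and roX2 itself chose these classes. The roX2-free cells had no roX2 UMI in the fixed draw. Their roX2 values therefore come only from UMIs beyond that draw and depend on the depth per cell. Because early NBs were deeper per cell, the sign in the roX2-free class cannot be read as a change with age.

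The dpn-positive cells with 10% mitochondrial UMIs or more numbered 2836 in experiment 1 and 229 in experiment 2. They enter no main comparison, and those under the higher mitochondrial limit enter only the alternatives with that limit. These dpn-positive cells held RNA of all 8 genes. In experiments 1 and 2, roX1 was at 2322 and 3131 CPM in them, roX2 at 75.2 and 98.4 CPM and Sxl at 211 and 320 CPM. The protein genes of the complex were at 50.5 and 64.4 CPM for msl-1, 24.7 and 35.5 CPM for msl-2, 10.5 and 7.1 CPM for msl-3, 34.6 and 40.6 CPM for mle and 23.1 and 22.8 CPM for mof.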

How the results depend on the processing

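In the comparison of NBs with dpn-negative cells (3558 genes and 4 members called), 2 members were called with DESeq2, whose median log2 fold change over 12845 unfiltered genes was -0.24 against 0.08, and 2 without the replicate block. The share of all genes called in those settings is not given here, so nothing about the members as a set is read from these counts. The 20% mitochondrial limit, no limit on dpn-negative cells and thinning to 2000 UMIs each left 0 genes and 0 members. Late against early NBs (4275 genes and 7 members), no replicate block left 1499 genes and 0 members, and thinning left 1239 genes and 2 members. By roX2 (268 genes and 5 members), DESeq2 gave 111 genes and 3 members, no filter 606 genes, no replicate block 0 and 0, the 20% mitochondrial limit 170 genes, positive from 5 UMIs 564 genes, choice at 30000 UMIs 110 genes, and classes by roX1 728 genes and 0 of 6 members. The dpn-negative cells in place of NBs gave 0 genes and 0 members, and there mof was reversed at -0.34 (adjusted p = 0.98, edgeR). This rests on few mof UMIs, 2 and 26 in roX2-positive and 5 and 77 in roX2-free cells. No difference of mof between NBs and those cells is read from it. The cause of these changes was not tested. The called members of the 3 comparisons kept their direction with each library alone and in every other setting with both libraries. Levels at 2000 UMIs per cell moved to between 0.55 (msl-1 of experiment 1 under the 20% limit) and 1.62 times their value (msl-3 of experiment 1 with 3 or more dpn UMIs) under other depths, limits and dpn thresholds. Depth limits the protein genes most, since msl-3 was seen in 2.1% and 2.3% of NBs at 2000 UMIs.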
